A study of Mus musculus with 17 samples.

Results

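The genes described here are 10 heat shock proteins and heat shock cognates, chosen by symbol, namely Hspa1a, Hspa1b, Hspa5, Hspa8, Hsp90aa1, Hsp90ab1, Hspb1, Hsph1, Dnajb1 and Dnajb5. They are 10 of the 55471 genes in a table of RNA-seq counts from mouse hippocampus, and each matched 1 row of it. The 17 libraries came from C57BL/6 mice aged 3 to 6 months, and 6 groups were formed by 2 genotypes and 3 treatments, all of 3 libraries except Control PTZ45, which had 2. CBP-ifKO mice carried floxed Crebbp together with Camk2a-creERT2, a Cre recombinase that tamoxifen activates, and so expressed a truncated CBP, without acetyltransferase activity, in the excitatory neurons of the adult forebrain. Their hippocampus still held all other cell types with intact Crebbp. Controls were littermates that also received tamoxifen and, by the methods of the study, lacked the creERT2 transgene, although the sample descriptions name Camk2a_creERT2 for both genotypes. In each genotype, Sal mice were given saline and no kindling protocol. PTZ0 and PTZ45 mice of both genotypes went through the kindling protocol, injections of 45 mg/kg of the convulsant pentylenetetrazole (PTZ) on alternate days. The paper places the last injection, of saline (PTZ0) or the same dose of PTZ (PTZ45), a week after kindling. The group names state the injections given, not how far seizures progressed in either genotype. Tissue was collected 45 min after that last injection. The comparisons ask how these chaperone genes responded to PTZ after the kindling protocol and how their levels differed in the absence of functional CBP.

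Heat shock proteins are chaperones, which bind unfolded or newly made proteins and help them to fold, to avoid aggregation or to be degraded. HSP70 proteins work in cycles of ATP hydrolysis that J-domain proteins (HSP40, the Dnaj genes) start and that HSP110 proteins help to end by nucleotide exchange. HSP90 proteins act later, on kinases, steroid receptors and other clients, and small heat shock proteins hold unfolded proteins without ATP. Several of these families have a stress-inducible form, which heat shock factor 1 (HSF1) turns on by binding arrays of nGAAn units in promoters, and a constitutive form, which neurons express at high level. The HSP70 of the endoplasmic reticulum belongs to another program, the unfolded protein response, which acts through a different promoter element.

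The promoters of the members whose levels differed most between groups are shown because HSF1 and the unfolded protein response act through different short sequences in such windows. RefSeq promoter windows (GRCm38.p6) were found for 7 members, and Hspa8, Hsp90aa1 and Hsp90ab1 had none in the table used. The 250 bases before the start site are given from 5′ to 3′ on the strand of the gene, with capitals for a paired heat shock unit (GAANNTTC or TTCNNGAA) or, in Hspa5, for the endoplasmic reticulum (ER) stress element (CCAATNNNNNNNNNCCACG). They are Hspa1a (chr17:34972157-34972406, minus strand), Hspa1b (chr17:34959239-34959488, minus strand), Hsph1 (chr5:149636316-149636565, minus strand), Hspa5 (chr2:34771840-34772089, plus strand) and Dnajb1 (chr8:83607925-83608174, plus strand). Hsph1 and Dnajb1 each had 2 windows, of which 1 is shown.
Hspa1a: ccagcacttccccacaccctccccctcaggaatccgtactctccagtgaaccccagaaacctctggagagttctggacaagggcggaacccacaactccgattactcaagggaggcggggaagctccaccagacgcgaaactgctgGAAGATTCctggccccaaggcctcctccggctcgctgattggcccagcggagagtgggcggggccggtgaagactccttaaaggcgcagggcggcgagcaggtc
Hspa1b: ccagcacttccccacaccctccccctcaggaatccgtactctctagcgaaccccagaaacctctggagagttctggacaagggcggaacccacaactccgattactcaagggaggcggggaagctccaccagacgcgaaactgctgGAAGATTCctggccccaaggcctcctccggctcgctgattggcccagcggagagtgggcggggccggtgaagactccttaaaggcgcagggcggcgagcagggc
Hsph1: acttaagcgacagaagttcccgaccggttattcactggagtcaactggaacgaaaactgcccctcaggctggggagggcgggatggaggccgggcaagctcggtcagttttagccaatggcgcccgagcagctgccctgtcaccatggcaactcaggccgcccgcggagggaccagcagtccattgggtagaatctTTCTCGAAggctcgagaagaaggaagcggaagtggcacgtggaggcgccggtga
Hspa5: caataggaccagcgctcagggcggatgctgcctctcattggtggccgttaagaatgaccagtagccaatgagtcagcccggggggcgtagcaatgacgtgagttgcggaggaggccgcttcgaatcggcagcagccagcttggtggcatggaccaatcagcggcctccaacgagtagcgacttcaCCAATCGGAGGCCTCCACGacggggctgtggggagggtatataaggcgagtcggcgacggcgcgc
Dnajb1: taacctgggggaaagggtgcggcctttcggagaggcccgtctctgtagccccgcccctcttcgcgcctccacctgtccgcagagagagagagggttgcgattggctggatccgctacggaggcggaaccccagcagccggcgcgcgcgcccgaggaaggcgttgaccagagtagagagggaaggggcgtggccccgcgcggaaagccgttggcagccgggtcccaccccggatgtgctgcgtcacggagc

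In the GENCODE M21 annotation of GRCm38, Hspa1b (ENSMUSG00000090877, chr17:34956436-34959238) and Hspa1a (ENSMUSG00000091971, chr17:34969190-34972156) lie on the same strand of 1 chromosome, Hsph1 (ENSMUSG00000029657) at chr5:149614287-149636376, Hspa5 (ENSMUSG00000026864) at chr2:34771970-34777547 and Dnajb1 (ENSMUSG00000005483) at chr8:83608193-83612653. The windows of Hspa5 and Hsph1, placed by RefSeq start sites, reach into these GENCODE genes. The stretches marked in them thus lie inside the annotated genes. The Hspa1a and Hspa1b windows were identical at 247 of 250 positions. Both held a paired unit at bases -104 to -97 from the start site, and Hsph1 held one at -54 to -47. Hspb1 held a pair of such matches, at -117 to -110 and at -97 to -90. The Dnajb1 and Dnajb5 windows held no paired unit. A paired unit occurred in 12.8% of all 32851 promoter windows of this length, read on both strands, so a match is common. It was searched for after a stricter array of 3 units (GAANNTTCNNGAA or TTCNNGAANNTTC), present in 0.466% of windows, had matched no member. The ER stress element, present in 0.113% of windows, matched Hspa5 at -65 to -47 and no other member. The cAMP response element (TGACGTCA, 1.55% of windows) and the TATA box sequence TATAAA (12.4%) matched none of the 7. TGACG, the shorter form of the cAMP response element, which the full element contains and which 17.8% of windows held, was found in Hspa5, Hspb1, Dnajb1 and Dnajb5, in Dnajb1 at -11 to -7 on the opposite strand. These matches describe letters in these windows and not sites in use.

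Levels of the 10 genes spanned 785-fold on the scale of normalized counts per kilobase of exon. Normalized counts are counts divided by a size factor for each library, and division by exon length allows a rough comparison of genes. Reads of low mapping quality were discarded, as described below, and the exon length was not corrected for this. Levels of Hspa8, Hsp90aa1, Hspa1a, Hspa1b and Hspb1, which share the most sequence with other genes, may thus be too low beside the others. Ranks and shares of the sum are therefore approximate. Hsp90ab1, the constitutive cytosolic HSP90, stood first at 3877 ± 310 per kilobase (SD over 17 libraries) and made up 59.2% of the summed level of the 10 genes. Hspa8, the constitutive HSP70 (HSC70), followed at 725 ± 84.4, then Hspa5, the HSP70 of the endoplasmic reticulum (BiP), at 611 ± 73.2 and Hsp90aa1, the inducible HSP90, at 598 ± 64.9. Hspa8, Hspa5 and Hsp90aa1 could not be ordered firmly: Hspa8 was above Hspa5 in 14 of 17 libraries and Hspa5 above Hsp90aa1 in 10 of 17. Hsph1, an HSP110 nucleotide exchange factor, had 400.0 ± 53.0 per kilobase.

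The J-domain genes Dnajb5 and Dnajb1 had 178 ± 18.3 and 136 ± 24.2 normalized counts per kilobase, and Dnajb5 was the higher in 16 of 17 libraries. The stress-inducible HSP70 genes were far lower. Hspa1b had 12.3 ± 5.46 and Hspa1a 8.1 ± 2.61 per kilobase, with Hspa1b higher in 14 of 17 libraries. Hspb1, the small heat shock protein HSP25, was lowest at 4.94 ± 1.45. With 3 to 8 raw counts in each library, near the limit of 3 counts, Hspb1 allowed no statement on groups and its fold changes are not described. Hspa1a had 10 to 38 raw counts and Hspa1b 10 to 73, so their fold changes are less precise than those of the other members.

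**Figure D1:**
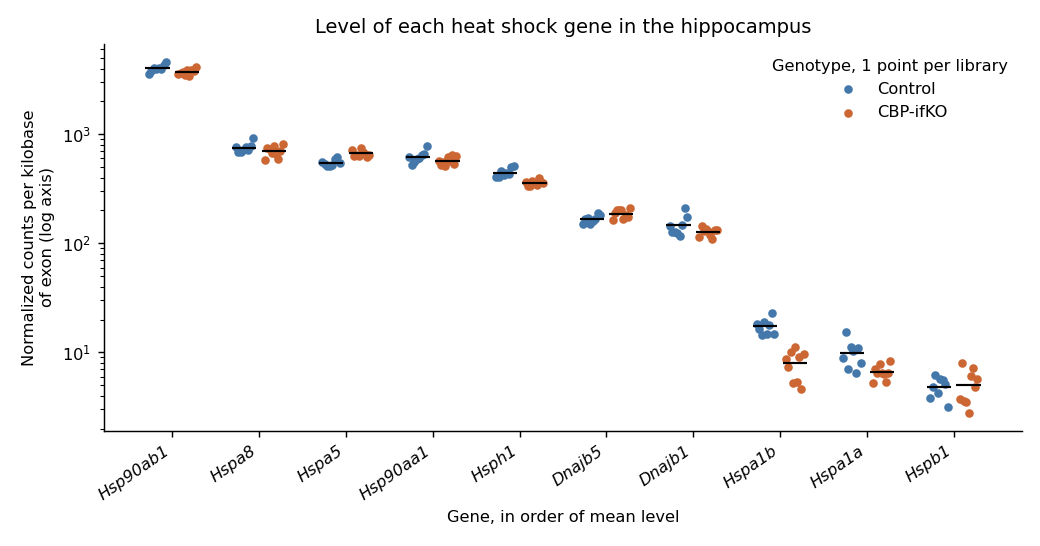
Normalized counts per kilobase of exon (log axis) of the 10 genes, with 1 point per library, blue for the 8 Control and orange for the 9 CBP-ifKO libraries, and a black line at each genotype's mean. Hsp90ab1 lies highest and Hspa1b, Hspa1a and Hspb1 lie far below the other genes, with the Hspa1b points of the genotypes apart.

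Several members have near-identical copies. Of the windows of 50 bases (the read length) in the longest transcript, 66.3% were found elsewhere in the annotated transcripts for Hspa1a, mostly in Hspa1b, 62.3% for Hspa1b, 58.5% for Hsp90aa1, 52.7% for Hspa8 and 51.6% for Hspb1. These shares were 4.49% for Hsp90ab1 and 0.441% for Dnajb1, and 0 for Hspa5, Hsph1 and Dnajb5. Reads of low mapping quality were discarded before counting, so the counts of genes with large shares rest on part of each transcript, and the split of reads between Hspa1a and Hspa1b is uncertain. Gm20481, a gene on the opposite strand, shares 2225 bases with Hspa1a and was at 0 in every library. The methods do not say whether counting used the strand. If it did not, reads in the shared bases may have been left uncounted for Hspa1a, which was not tested. The level of Hspa1a beside Hspa1b bears this limit too.

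Libraries held 5831992 to 18735643 counts, and replicates differed by more than counting noise (chi-square per degree of freedom 2.16 to 16), so none was taken as a copy of another. The labels do not say that libraries of a group came from separate animals. The methods state individual male mice for the saline-treated mice of this experiment, and otherwise p-values measure the spread between these samples. Crebbp was at 55.9% of the control mean in CBP-ifKOs, with no overlap. In 5 libraries the summed level of 8 choroid plexus markers was 11133 to 45577 normalized counts, against 511 to 1275 in the other 12. These were Control Sal replicate 2, Control PTZ0 replicate 2, CBP-ifKO Sal replicate 1, CBP-ifKO PTZ0 replicate 3 and CBP-ifKO PTZ45 replicate 2. Summed levels of excitatory neuron markers, 30533 to 39350 in controls and 33815 to 43522 in CBP-ifKOs, matched the tissue label. The lane number in the sample descriptions was 3 for Control Sal and Control PTZ0, 4 for Control PTZ45 and CBP-ifKO Sal, and 5 for CBP-ifKO PTZ0 and PTZ45. Genotype within a treatment was thus never compared within a lane, and of the treatment comparisons only Control PTZ0 against Sal and CBP-ifKO PTZ45 against PTZ0 were. In whole tissue, fewer cells of a type and less RNA per cell cannot be told apart.

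In Control PTZ45, 1 of the 10 genes was higher at an adjusted p under 0.05 than in the control groups that did not receive the last PTZ dose. Control PTZ45 also differed from both in lane number, and from Sal in kindling, so these and the dose cannot be told apart. Dnajb1, an HSP40 that delivers substrates to HSP70 and is a well-known HSF1 target, had 464, 405 and 410 normalized counts in the Control Sal libraries, 400.0, 375 and 468 in Control PTZ0, and 675 and 554 in Control PTZ45. Both PTZ45 libraries lay above all 6 libraries without the last PTZ dose. Against Sal the increase was 1.44-fold (log2 fold change 0.52, SE 0.133, adjusted p 0.00984 by the DESeq2 Wald test). Against PTZ0 it was 1.48-fold (0.57, SE 0.131, adjusted p 0.00196 by DESeq2). Genes past an adjusted p of 0.05 were 1.17% of those tested in Control PTZ45 against Sal and 1.25% against PTZ0, so 1 of 9 members with an adjusted p is a small number to read against this background.

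The Dnajb1 calls depended on single libraries and on the fit. With 1 surrogate variable the log2 fold change against Sal was 0.53 and the adjusted p 0.129. Without Control PTZ45 replicate 1, which had the higher value, the log2 fold change was 0.37 against Sal (adjusted p 0.53) and 0.42 against PTZ0 (adjusted p 0.125). The call against Sal was also lost without Control Sal replicate 2 (0.49, adjusted p 0.27), which is the choroid plexus-rich library of that group, and without replicate 3 (0.50, adjusted p 0.172), with nearly the same fold change. Against PTZ0 it was lost without Control PTZ0 replicate 1 (0.54, adjusted p 0.182) and without replicate 2 (0.50, adjusted p 0.117).

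Other members lay higher in Control PTZ45 than in Sal without passing the adjusted threshold. Hsph1 had 2946, 2933 and 3326 normalized counts in Control Sal, 3064, 3205 and 3159 in PTZ0, and 3607 and 3680 in PTZ45, with no overlap. Its log2 fold changes were 0.24 (SE 0.0871, adjusted p 0.221 by DESeq2) against Sal and 0.21 (SE 0.0639, adjusted p 0.0687) against PTZ0. Hsp90aa1 had 2429, 2072 and 2200 in Sal, 2328, 2406 and 2558 in PTZ0, and 2571 and 3052 in PTZ45. It differed from Sal by 0.33 on the log2 scale (SE 0.102, adjusted p 0.0916) and from PTZ0 by 0.21 (SE 0.0831, adjusted p 0.343).

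Hsp90ab1 was at 12923 and 13924 normalized counts in Control PTZ45, above the range of 10733 to 12155 in the Sal and PTZ0 libraries, with log2 fold changes of 0.24 against Sal (adjusted p 0.168 by DESeq2) and 0.16 against PTZ0 (adjusted p 0.212). Hspa8 was at 3343 and 4008, above a range of 2964 to 3298, with 0.26 (adjusted p 0.28) and 0.22 (adjusted p 0.256). Dnajb5, the other J-domain gene, was at 1122 and 1076, above a range of 898 to 1009, with 0.19 (adjusted p 0.728) and 0.21 (adjusted p 0.412). Both PTZ45 libraries were thus the higher for 6 members against either baseline, by 1.12-fold to 1.48-fold. With 2 libraries in a group this is common, and it held for 16.7% of all genes tested against Sal and 17.6% against PTZ0. At an unadjusted p under 0.05 there were 5 members against Sal and 6 against PTZ0, where 7.66% and 8.3% of all genes tested had one. The median log2 fold change of the members with an adjusted p was 0.24 against Sal, where that of all genes tested was 0.01. With Control PTZ45 replicate 1 left out, which leaves 1 library assumed to vary like the other group, Hspa8 (adjusted p 0.000177), Hsp90ab1 (0.000955), Hsp90aa1 (0.0025) and Hsph1 (0.0261) passed against PTZ0. Against Sal, Hspa8 (0.048) and Hsp90aa1 (0.0293) then passed, and Hsp90aa1 also passed without Control Sal replicate 1 (0.0241).

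The members of the inducible HSP70 pair and Hspa5 overlapped between Control PTZ45 and Sal. Hspa1b had 64.6 and 41.3 normalized counts in PTZ45 against 51.4, 45.6 and 40.7 in Sal (log2 fold change 0.21, 95% interval -0.46 to 0.87). Hspa1a had 32.7 and 23.9 against 26.5, 45.6 and 20.8 (-0.10, interval -0.98 to 0.78). Hspa5 had 2640 and 2295 against 2344, 2258 and 2163 (0.13, interval -0.05 to 0.31). For Hspa1a and Hspa1b the intervals leave room for changes of either sign, so a change was not detectable at this depth.

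In CBP-ifKOs none of the 10 genes passed the threshold in PTZ45 against Sal or against PTZ0, by DESeq2 or by edgeR, and none had an unadjusted p under 0.05. Called genes were 0.294% and 0.0872% of those tested in these comparisons. Dnajb1 had 364, 465 and 412 normalized counts in CBP-ifKO Sal, 437, 414 and 380 in PTZ0, and 353, 427 and 428 in PTZ45, so the groups overlapped fully. Its log2 fold change was -0.03 against Sal (95% interval -0.29 to 0.24) and -0.02 against PTZ0 (interval -0.27 to 0.22). Intervals of the other members also spanned 0, for example Hsph1 at 0.11 (-0.06 to 0.27) against Sal. Hsp90ab1 lay at 11546, 11308 and 12472 in PTZ45, above 10811 to 11198 in Sal, with a log2 fold change of 0.10 (-0.04 to 0.24). The immediate early genes of the same libraries had changed in these mice. Of 10 such genes, 9 rose in CBP-ifKO PTZ45 against Sal, among them Fos by 2.91 and Npas4 by 2.28 on the log2 scale, compared with 6.08 and 6.16 in controls.

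The difference between the genotypes in their PTZ45 response was tested directly as an interaction over the Sal and PTZ45 libraries. No member passed, where 0.329% of genes tested did, and 1 member had an unadjusted p under 0.05. This was Dnajb1, with an interaction of -0.55 (SE 0.186, unadjusted p 0.00302, adjusted p 0.614 by DESeq2), and over the alternatives its adjusted p ranged from 0.16 to 1.0. With edgeR none passed either. For Hsp90aa1 the interaction was -0.21 (95% interval -0.48 to 0.06) and for Hspa8 -0.23 (-0.57 to 0.11). A smaller Dnajb1 response in CBP-ifKOs was therefore not established over all genes, while all 10 immediate early genes passed the same test, each with a smaller response in CBP-ifKOs.

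**Figure D2:**
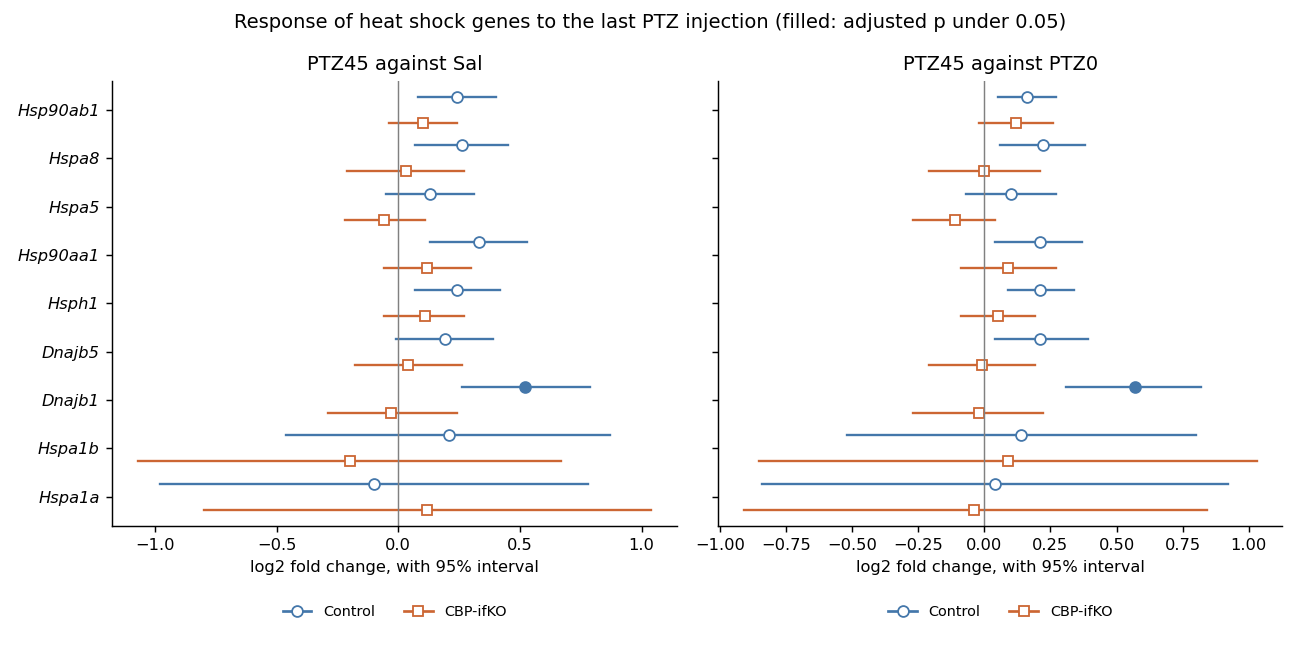
Log2 fold change with 95% interval of PTZ45 against Sal (left) and against PTZ0 (right) for 9 genes, Hspb1 left out, with blue circles for Control and orange squares for CBP-ifKO and filled symbols for an adjusted p under 0.05. Dnajb1 in controls is the only filled symbol in either panel, and the control estimates of Hsp90ab1, Hspa8, Hsp90aa1, Hsph1 and Dnajb5 lie right of 0.

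After the kindling protocol without the last PTZ dose, no member passed the threshold in either genotype by DESeq2 or edgeR. None had an unadjusted p under 0.05. In PTZ0 against Sal, called genes were 0.00843% of those tested in controls and 0.0112% in CBP-ifKOs. The widest difference on the log2 scale among members above 1000 normalized counts was that of Hsp90aa1 in controls, 0.12 with a 95% interval of -0.02 to 0.26. Dnajb1 differed by -0.04 (-0.26 to 0.18) in controls and 0.00 (-0.25 to 0.25) in CBP-ifKOs. For Hspa1a and Hspa1b, with their low counts, small changes could not be seen. The control comparison was made within 1 lane, and that in CBP-ifKOs between lanes.

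Between genotypes, members differed in both directions. Fitted over all 17 libraries with treatment as a term, 6 members passed the threshold, 4 lower (Hspa1a, Hspa1b, Hsph1 and Hsp90ab1) and 2 higher (Hspa5 and Dnajb5) in CBP-ifKOs, but 19.3% of all genes tested passed as well. Within treatments 2 members passed in Sal, 2 in PTZ0 and 2 in PTZ45, where 2.04%, 6.68% and 3.07% of genes tested did. Hspa5 and Hsph1 passed in Sal and PTZ0, and Hsph1 and Dnajb1 in PTZ45.

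Hsph1 was lower in CBP-ifKOs under every treatment. Its normalized counts were 2635, 2436 and 2462 in CBP-ifKO Sal, 2737, 2604 and 2512 in PTZ0, and 2877, 2639 and 2612 in PTZ45. Every CBP-ifKO library lay below every control library, the lowest of which had 2933, and the mean was 80.6% ± 4.23 (SD, n = 9) of the control mean. Such full separation downward held for 2.16% of all genes tested. On the log2 scale the difference was -0.29 in Sal (SE 0.0833, DESeq2 adjusted p 0.0277), -0.26 in PTZ0 (SE 0.0596, adjusted p 0.000524), -0.43 in PTZ45 (SE 0.0852, adjusted p 7.71e-05) and -0.32 over all treatments (SE 0.0387, adjusted p 1.86e-14). The overall call was kept in all 28 alternatives. The call in Sal was lost in 7 of 14, among them edgeR (adjusted p 0.139) and the fits without Control Sal replicate 2 (0.135), Control Sal replicate 3 (0.356) or CBP-ifKO Sal replicate 2 (0.244). As given below, the call in PTZ0 was lost without the libraries rich in choroid plexus markers. That in PTZ45 was lost with the replicate number as a term in the fit.

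Hspa1b, 1 of the pair of stress-inducible HSP70 genes, had the largest relative difference among the members. It had 24.3, 20.8 and 28.1 normalized counts in CBP-ifKO Sal, 14.6, 31.5 and 15.0 in PTZ0, and 25.2, 13 and 27.1 in PTZ45. All 9 libraries lay below the lowest control library, at 40.7, and the mean was 45.8% ± 13.8 (SD, n = 9) of the control mean. As given for Hsph1, full separation downward held for 2.16% of all genes tested. With treatments combined it differed by -1.13 on the log2 scale (SE 0.183, DESeq2 adjusted p 3.43e-08). Within treatments it was -0.89 in Sal (adjusted p 0.209) and -1.29 in PTZ45 (adjusted p 0.0965), and in PTZ0 it was -1.24 with an unadjusted p of 0.000824 and no adjusted p, because the mean count was under the filter of DESeq2. With edgeR, which filters low counts by another rule and kept this gene, the adjusted p was 0.0255 in PTZ0 and 0.0392 in PTZ45.

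Hspa1a ranged from 15.4 to 24.8 normalized counts in CBP-ifKOs and from 19 to 45.6 in controls, with overlap. With treatments combined it differed by -0.58 on the log2 scale (SE 0.201, adjusted p 0.0254), a call lost in 10 of 28 alternatives, among them the fits without Control Sal replicate 2 (0.0904), Control PTZ0 replicate 1 (0.0651), Control PTZ45 replicate 1 (0.0732) or CBP-ifKO Sal replicate 1 (0.069). Since the pair shares sequence, the sum of both was also examined. It was 41.7 ± 6.98 normalized counts (SD, n = 9) in CBP-ifKOs and 77.5 ± 13 (n = 8) in controls, with ranges of 32.0 to 51.9 and 61.5 to 97.3 that did not overlap. Among single genes tested, 2.16% separated downward in this way. Of the reads of the pair, Hspa1b took 62.9% ± 6.74 in controls and 52.3% ± 9.4 in CBP-ifKOs, with overlapping ranges.

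Hspa5 moved the other way. It had 3043, 2673 and 2729 normalized counts in CBP-ifKO Sal against 2344, 2258 and 2163 in Control Sal, and 2661, 3186 and 2933 in CBP-ifKO PTZ0 against 2164, 2218 and 2518 in Control PTZ0. Neither pair of groups overlapped, as was so in this direction for 10.1% of all genes tested in Sal and 13.6% in PTZ0. On the log2 scale it was higher by 0.32 in Sal (SE 0.0832, DESeq2 adjusted p 0.0103) and 0.35 in PTZ0 (SE 0.0782, adjusted p 0.000466). In PTZ45 the CBP-ifKO libraries had 2777, 2622 and 2738, the controls 2640 and 2295, and the difference of 0.14 (95% interval -0.04 to 0.32) did not pass. Over all treatments it was 0.28 (SE 0.0505, adjusted p 1.26e-06), and 8 of 9 CBP-ifKO libraries lay above all controls. In Sal the call was lost with edgeR (adjusted p 0.0793) and without Control Sal replicate 2 (0.181), Control Sal replicate 3 (0.182) or CBP-ifKO Sal replicate 1 (0.159). Whether the difference in PTZ45 was smaller than in Sal was tested by the interaction, which gave -0.19 (95% interval -0.42 to 0.05).

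Dnajb1 differed between genotypes in PTZ45, by -0.61 on the log2 scale (SE 0.145, DESeq2 adjusted p 0.00185), and not detectably in Sal (-0.07, 95% interval -0.31 to 0.18) or PTZ0 (-0.02, -0.24 to 0.21). The call in PTZ45 rested on the 2 Control PTZ45 libraries described above, and was lost without replicate 1 of that group (adjusted p 0.523) or without CBP-ifKO PTZ45 replicate 1 (0.0689). Hsp90ab1 was at 92.4% ± 5.6 of the control mean (log2 fold change -0.12, SE 0.0372, adjusted p 0.00738) and its ranges overlapped. Dnajb5 was at 112% ± 10.4 (0.16, SE 0.0591, adjusted p 0.0426), also with overlap, and leaving out any of 10 single libraries lost the call, with adjusted p between 0.0559 and 0.106. Hspa8 at 92.3% ± 11.1 and Hsp90aa1 at 92.1% ± 7.51 did not pass, although Hsp90aa1 did without Control Sal replicate 2 (adjusted p 0.0353) or CBP-ifKO PTZ0 replicate 2 (0.0364).

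**Figure D3:**
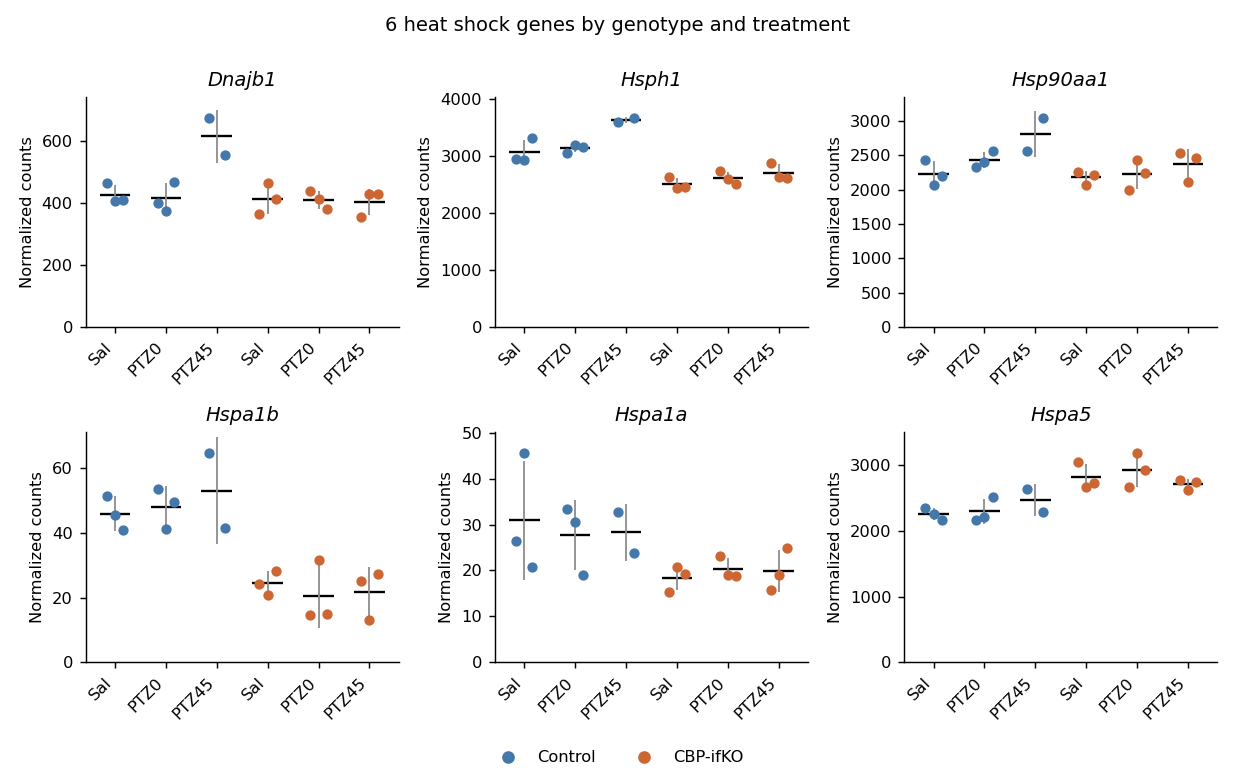
Normalized counts of 6 genes in the 6 groups, with 1 point per library, blue for Control and orange for CBP-ifKO, a black line at the mean and a gray line for ± SD. Dnajb1 is highest in Control PTZ45, Hsph1 and Hspa1b are lower in all CBP-ifKO libraries, and Hspa5 is higher in CBP-ifKO Sal and PTZ0 than in their controls.

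The lane number differed between the genotypes within each treatment. With lane as a term in the fit over all treatments, chosen after seeing the data, only Hsph1 passed, at -0.45 (adjusted p 0.0166 by DESeq2). Hspa1b had -0.94 (adjusted p 0.942) and Hspa5 0.11 (adjusted p 1.0), and Dnajb5 changed sign, to -0.05. In this fit genotype is compared within lane 4 alone, between Control PTZ45 and CBP-ifKO Sal, with treatment adjusted for from the other lanes. Within lane 4 genotype and treatment differ together, so the estimate, also that of Hsph1, assumes the same PTZ effect in both genotypes. Without that assumption the genotype and the lane cannot be told apart for any member. In lane 4 the ranges of Control PTZ45 and CBP-ifKO Sal, which also differ in treatment, were 3607 to 3680 and 2436 to 2635 normalized counts for Hsph1, 41.3 to 64.6 and 20.8 to 28.1 for Hspa1b, and 2295 to 2640 and 2673 to 3043 for Hspa5.

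Leaving out the 5 libraries rich in choroid plexus markers kept the genotype calls of Hspa1b (-1.01, adjusted p 0.000135 by DESeq2), Hspa5 (0.25, adjusted p 0.00133), Hsph1 (-0.33, adjusted p 6.9e-09) and Dnajb5 (0.23, adjusted p 0.00467) over all treatments, and lost those of Hspa1a and Hsp90ab1. In the smaller fits within Sal and within PTZ0, with 2 libraries in each group, no member passed without them. In PTZ0, Hsph1 then had -0.22 (adjusted p 0.456) and Hspa5 0.33 (adjusted p 0.231). Other cell type markers were compared in the same way. Of the 8 excitatory neuron markers, over all treatments Wfs1, Nrgn and Grik4 were lower, Prox1 was higher and the other 4 did not pass, where 19.3% of all genes tested passed. The mean summed level of the list was 36076, 34836 and 35919 normalized counts in Control Sal, PTZ0 and PTZ45, against 38522, 38142 and 35033 in CBP-ifKOs. Mean summed levels of 8 astrocyte markers were 22599, 22305 and 21585 normalized counts in Control Sal, PTZ0 and PTZ45, against 19465, 19870 and 20432 in CBP-ifKOs, and 3 of these markers passed as lower over all treatments. Those of 8 interneuron markers were 6960, 6970 and 7103 against 6377, 6521 and 6629, with 2 lower, and those of 8 mural markers 3000.0, 3076 and 2786 against 2557, 2632 and 2622, with 1 lower. In the oligodendrocyte and microglia lists no marker passed over all treatments. Their mean summed levels were lower in CBP-ifKO Sal and PTZ0 than in controls and higher in PTZ45, where they were 37434 against 36073 for oligodendrocytes and 3233 against 3171 for microglia. The part of these shifts in the levels of the heat shock genes was not tested.

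**Figure D4:**
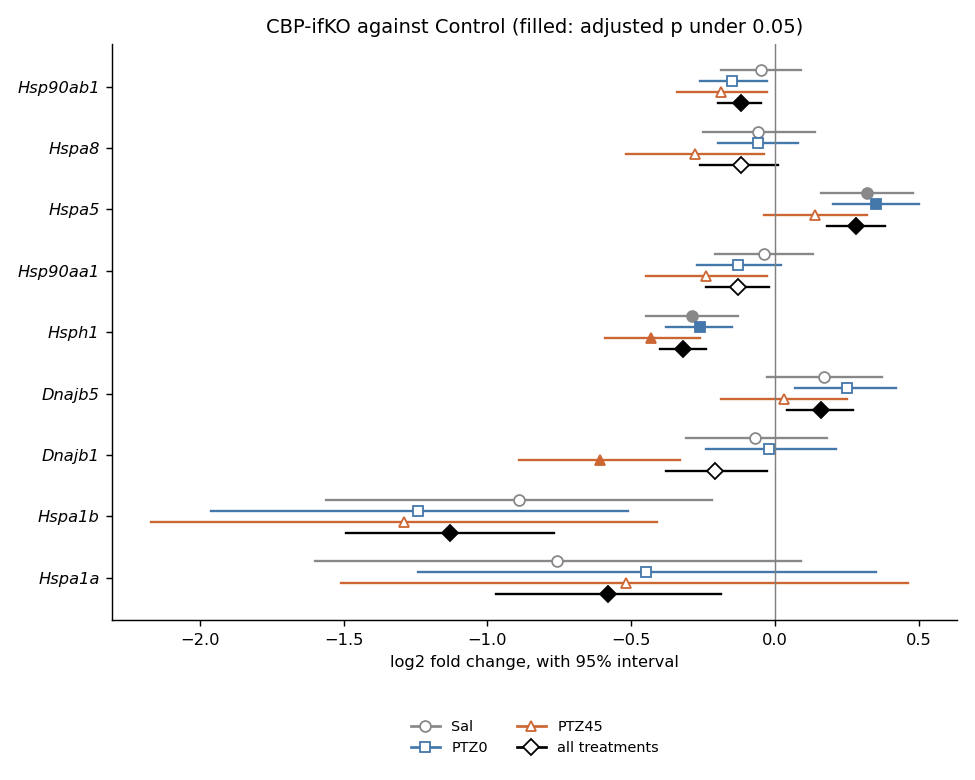
Log2 fold change with 95% interval of CBP-ifKO against Control for 9 genes, Hspb1 left out, in Sal (gray circles), PTZ0 (blue squares), PTZ45 (orange triangles) and over all treatments (black diamonds), with filled symbols for an adjusted p under 0.05. Hsph1 lies left of 0 and is filled in every comparison, Hspa5 lies right of 0, and Hspa1b lies farthest left, near -1.

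Wider lists of the chaperone network were described beside the members. Of 60 other chaperones and co-chaperones, 57 had an adjusted p in Control PTZ45 against Sal and 3 rose, where 1.17% of all genes tested passed. Hspa14, an HSP70 of the ribosome, rose by 0.62 on the log2 scale (SE 0.129, adjusted p 0.000315 by DESeq2), from 359 to 378 normalized counts in Sal to 603 and 523 in PTZ45. Dnaja1, another HSP40 partner of HSP70, rose by 0.49 (SE 0.0924, adjusted p 2.67e-05), from 1116 to 1199 up to 1630 and 1595. Hsp90b1, the HSP90 of the endoplasmic reticulum, also passed, a call that 10 of 12 alternatives lost, and is named after its values were seen. The call of Hspa14 was lost in 2 of 12 alternatives (DESeq2 adjusted p up to 0.947), among them the fit without Control PTZ45 replicate 1. That of Dnaja1 was lost in 1 of 12 (adjusted p 0.309). Against PTZ0, Hspa14 (0.68) and Dnaja1 (0.50) were the 2 that passed, beside 1.25% of all genes tested. In CBP-ifKOs none of the 60 passed in either comparison by DESeq2, where 5 against Sal and 3 against PTZ0 had an unadjusted p under 0.05, beside 4.33% and 2.12% of all genes tested.

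Of 21 genes widely used as readouts of HSF1, 20 had an adjusted p in Control PTZ45 against Sal, where 3 rose, Dnajb1 and Dnaja1 among them, and none fell, beside the same 1.17% of all genes. The median of that list was 0.19, beside 0.01 over all genes tested. The factors Hsf1 and Hsf2 did not pass in any treatment comparison, with log2 fold changes of -0.20 and 0.10 in Control PTZ45 against Sal. Of 20 unfolded protein response genes tested, none but Hsp90b1 rose there, with the losses given above, and Hspa5, in the same list, had the value given above. Against PTZ0, Atf4, a factor that this response induces, was the 1 that rose (0.29, adjusted p 0.0316), a call lost in 6 of 12 alternatives. Of 8 genes raised by corticosteroids, Per1 (1.21, SE 0.143) and Errfi1 (1.13, SE 0.125) rose in Control PTZ45 against Sal and the other 6 did not pass, with a median of 0.05 over the list. The interactions of Per1 and Errfi1 with genotype, -1.12 and -0.90, passed as well, and were lost in 1 and 6 of 20 alternatives.

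Between genotypes over all treatments, 1 of the 57 other chaperones with an adjusted p was higher and 5 were lower in CBP-ifKOs, where 19.3% of all genes tested passed. The higher one was Dnajb4 (0.13, adjusted p 0.0307 by DESeq2), another HSP40, a call lost in 14 of 28 alternatives. The largest decrease was that of Tomm34, a co-chaperone that links HSP70 and HSP90 (-0.32, SE 0.0519, adjusted p 2.14e-08), which ranged below all controls. With lane as a term its adjusted p was 1.0. In the fit within PTZ0, Tomm34 (-0.43, adjusted p 0.127 without the choroid plexus-rich libraries) and Bag5 (-0.33), a nucleotide exchange factor whose call 8 of 14 alternatives lost, were lower. Within PTZ45, Hspa14 (-0.50) was lower, a call that 7 of 12 alternatives lost, and Dnaja1, named after its values were seen, also passed, a call that 6 of 12 lost.

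Hsf1 itself was higher in CBP-ifKOs over all treatments (0.23, SE 0.0612, adjusted p 0.0022 by DESeq2), and Hsf2 differed by 0.04 and did not pass. Within Sal, PTZ0 and PTZ45 the adjusted p of Hsf1 was 0.585, 0.406 and 0.554, and with lane as a term over all treatments it was 1.0. Of the 20 HSF1 readouts with an adjusted p, 4 were lower, all of them members described above, and Dnajb4 was higher. This count and those of the next lists are to be read beside the same 19.3%. Of 20 unfolded protein response genes, 4 were higher, namely Hspa5, Manf (0.14), Dnajc3 (0.14) and Pdia3 (0.13), and 2 were lower, among them Atf4 (-0.27, SE 0.0421). The calls of Manf and Dnajc3 were lost in most alternatives. Of 8 corticosteroid-raised genes 5 were lower, among them Per1 (-0.62), Errfi1 (-0.50) and Sgk1 (-0.47).

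The genes whose pattern over the 17 libraries was most like that of Dnajb1 were Ciart, a repressor in the circadian clock, with a Spearman correlation of 0.82, and Gm37673 and Gm48870, both at 0.77. They were taken from 13041 genes whose mean reached 50 normalized counts, share these libraries and their size factors with Dnajb1, and are given as a description.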

How the data were processed

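Total RNA from hippocampus was sequenced as single-end reads of 50 bases. The authors trimmed reads with Trim Galore 0.6.4, aligned them to mm10 (GRCm38) with STAR 2.6.1, kept mapping quality over 10 and deposited whole-number counts per gene, made with Rsubread on Ensembl exons. Whether counting used the strand is not given in the sources used here. Of 18 count columns, 1 matched no sample and was not used. By its name it resembles Control PTZ45, the group of 2 libraries on which the Dnajb1 calls rest.

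Each pair of groups was fitted alone with the DESeq2 Wald test (DESeq2 1.42.0, R 4.3.3, two-sided) on genes with at least 1 count, with Benjamini-Hochberg adjustment and independent filtering over all genes, called under 0.05. Genotype over all treatments had treatment as a term, and the interaction used Sal and PTZ45. Alternatives were edgeR 4.0.16, TMM size factors, a filter of 10 counts in 2 libraries, 1 fit of all libraries, 1 surrogate variable (sva 3.50.0), the replicate block, a GC correction and leaving out each library. Terms for lane, fits without PTZ45 or Sal libraries or without libraries rich in choroid plexus markers, and the paired heat shock unit were added after seeing the data. The fitting code was tested on simulated data with known answers. Gene IDs were matched to GENCODE M21 (99.6%).

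The members and lists were chosen with earlier results of these data known. Named beside them were Hsf1, Hsf2, the check genes Fos, Npas4 and Crebbp, up to 5 called genes per direction and comparison from the wider lists by fold change, and the 3 genes most like a called member. Of the wider lists, 1 gene is not reported here.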

Additional observations from a re-analysis of the deposited data

How the results depend on the processing

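The number of members that passed depended on the processing in these comparisons. In Control PTZ45 against Sal, where 1 passed, 3 did with all 17 libraries in 1 fit, 0 with 1 surrogate variable and 0 with the replicate block, and 0 to 2 when single libraries were left out. Against PTZ0, where 1 passed, 0 did with the replicate block, 2 with the GC correction and 0 to 4 without single libraries. For genotype in Sal, 0 of the 2 passed with edgeR, 1 with 1 surrogate variable, 0 with the replicate block, 0 without the choroid plexus-rich libraries and 0 to 2 without single libraries. In PTZ0, where 2 passed, 0 did without the choroid plexus-rich libraries and 2 to 3 without single libraries. In PTZ45 the replicate block gave 0 in place of 2, and leaving out single libraries gave 1 to 3. Over all treatments, lane as a term gave 1 in place of 6 and leaving out single libraries 4 to 6. With lane as a term the log2 fold changes of Dnajb5 (-0.05) and Dnajb4 (-0.08) changed sign. The replicate block lost the calls of Dnajb1 in Control PTZ45 against Sal (0.50, adjusted p 1.0) and against PTZ0 (0.66, adjusted p 0.106), of Dnajb1 (-0.65, adjusted p 0.381) and Hsph1 (-0.40, adjusted p 0.271) between genotypes in PTZ45, and, in Control PTZ45 against Sal, of Hspa14 (adjusted p 0.947) and Dnaja1 (adjusted p 0.309). The cause was not tested. In the other 5 comparisons, where none passed, none did under any alternative. Libraries with the same replicate number did not deviate together (correlation -0.52 to 0.53, over 0.1 in 15 of 40 pairs), and 7 of 17 libraries correlated best with one of their own number, so the numbers were not taken to pair samples. The numbers are those of the sample titles, and the count column of Control PTZ45 replicate 2 carries another number in its name. Depth limits Hspb1 and, less so, Hspa1a and Hspa1b.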
